A study of Mus musculus with 8 samples.

Results

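Toll-like receptors are the membrane-bound sensors with which innate immune cells recognise microbial molecules and some molecules released by injured tissue. The genes described here are 8 of those receptors (Tlr1, Tlr2, Tlr3, Tlr4, Tlr6, Tlr7, Tlr9 and Tlr13), the lipopolysaccharide co-receptor gene Cd14 and the adaptor gene Myd88. They were found by gene symbol among the 48404 genes of the authors' deposited table, and all 10 symbols matched exactly 1 row, each a protein-coding gene with a fold change and a p. RNA was sequenced from microvessels, the small blood vessels, isolated from brain tissue of C57BL6 mice with a wild type genotype. The 4 libraries of the stroke group came from mice with tMCAO (transient middle cerebral artery occlusion, a stroke model in which the main artery of 1 hemisphere is closed with a filament and later reopened), and the 4 libraries of the other group came from mice with a sham operation. The sources used here do not give age, sex, the length of the occlusion or the time of sampling.

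Receptors of the cell surface (Tlr1, Tlr2, Tlr4, Tlr5 and Tlr6) mainly recognise lipids, lipopeptides and proteins, while those of endosomes (Tlr3, Tlr7, Tlr8, Tlr9 and Tlr13) recognise nucleic acids. After ligand binding, the intracellular TIR domain of all of them except Tlr3 can recruit the adaptor encoded by Myd88, which assembles kinases of the Irak family and leads to activation of NF-kappaB; Tlr3 uses the adaptor encoded by Ticam1, and Tlr4 uses both. In the brain these genes are best known from microglia and from macrophages along the vessels, and some, Tlr4 among them, also from endothelial cells.

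For each gene the authors deposited a log2 fold change and a p, and these were analysed. Levels and depth per library were not analysed here, so neither the spread between libraries nor the number of libraries that followed a direction can be given. Whether each library stands for a different mouse is not stated in the labels, so a p may measure technical spread only. The header does not name the numerator of the fold change. A positive value was taken to mean higher after tMCAO, since Il6, Hmox1 and other genes of acute injury have large positive values in the same table. The deposited p was read as already adjusted over all genes, and a gene was called at a p under 0.05. Each value below is given with an implied standard error, worked back from the p, and its 95% interval. The pattern of repeated small values makes it likely that the authors shrank their fold changes, which would make these errors too small.

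The promoters below show the sequence context of a pair of members that were called higher as deposited (Tlr2 and Tlr13) and of a pair that were not (Tlr9 and Tlr3). They are the promoter windows of members that hold any of 3 motifs, each searched on both strands and marked by capitals: the kappaB consensus in Tlr2 and Tlr3, AGAGGAAG, letters bound by the myeloid factor PU.1, in Tlr13 and Tlr9, and the AP-1 motif TGANTCA in Tlr9. Each runs 5′ to 3′ along the gene, from 250 bases before to 50 bases after the start of a RefSeq transcript in GRCm38.p6.
Tlr2, chr3:83841559-83841858, minus strand: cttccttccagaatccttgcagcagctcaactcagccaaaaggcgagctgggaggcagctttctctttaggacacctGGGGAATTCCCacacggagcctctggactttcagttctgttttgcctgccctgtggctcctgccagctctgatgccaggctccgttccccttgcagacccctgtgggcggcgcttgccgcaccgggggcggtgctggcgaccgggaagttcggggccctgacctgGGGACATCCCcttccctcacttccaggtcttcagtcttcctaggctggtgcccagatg
Tlr13, chrX:106143025-106143324, plus strand: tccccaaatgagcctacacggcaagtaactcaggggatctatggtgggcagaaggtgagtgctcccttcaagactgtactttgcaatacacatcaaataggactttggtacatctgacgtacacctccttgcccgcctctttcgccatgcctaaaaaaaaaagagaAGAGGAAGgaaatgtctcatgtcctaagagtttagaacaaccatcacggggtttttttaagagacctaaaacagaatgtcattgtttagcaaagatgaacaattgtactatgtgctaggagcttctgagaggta
Tlr9, chr9:106222348-106222647, plus strand: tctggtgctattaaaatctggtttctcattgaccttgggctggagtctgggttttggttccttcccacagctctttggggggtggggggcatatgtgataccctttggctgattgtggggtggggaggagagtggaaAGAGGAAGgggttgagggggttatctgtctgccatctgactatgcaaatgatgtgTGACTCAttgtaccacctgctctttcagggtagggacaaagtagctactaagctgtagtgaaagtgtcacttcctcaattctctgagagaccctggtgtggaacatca
Tlr3, chr8:45410331-45410630, minus strand: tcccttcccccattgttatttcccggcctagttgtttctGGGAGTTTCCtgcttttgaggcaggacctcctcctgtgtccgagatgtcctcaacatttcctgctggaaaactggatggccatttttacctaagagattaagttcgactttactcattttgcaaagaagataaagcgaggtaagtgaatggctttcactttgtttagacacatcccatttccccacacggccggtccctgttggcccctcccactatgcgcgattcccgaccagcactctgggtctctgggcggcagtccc

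In the Tlr2 window the kappaB letters begin 173 bases and 8 bases upstream of the start, both runs matching on either strand and the more distant one holding overlapping matches. In the Tlr3 window they begin 211 bases upstream. AGAGGAAG begins 84 bases upstream in Tlr13 and 113 bases upstream in Tlr9, where TGANTCA follows 58 bases upstream. The match of Tlr9 to TGANTCA reads on both strands, and no 2 of the motifs overlap in these windows. Of 32851 mouse promoter windows of this length, 8.46% hold the kappaB consensus, 7.81% hold TGANTCA and 4.55% hold AGAGGAAG. In all, 9 windows of 7 members were searched, and these 4 were the ones with any of these 3 motifs. No window of Tlr4, Tlr7 or Cd14 was among those searched. None of the 3 is found in the 2 windows of Tlr1, the 2 of Tlr6 or that of Myd88. A further motif, of interferon-stimulated elements, had matches in windows of Myd88 and Tlr6 and is not described here. A match of letters is no evidence of binding, and a window without one says nothing about the factor.

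After tMCAO, 7 of the 10 genes rose, against 15.2% of all 19294 tested genes called higher, and 1 fell, against 17.6% called lower. With fold changes centred on ribosomal protein genes, 1 would be called higher, against 1.71% of tested genes, and 3 lower, against 78%. Cd14 rose most, Tlr1, Tlr4, Tlr13 and Myd88 rose by similar amounts, and Tlr2 and Tlr6 rose less, with the direction of Tlr6 turning under that centring. Tlr7 fell, and Tlr3 and Tlr9 were not called as deposited, though both would be called lower when centred on ribosomal protein genes. Among tested protein-coding genes, 18.4% were called higher and 20% lower. With a log2 fold change of at least 1 also asked for, 6 of the 10 were called higher, against 4.78% of tested genes. With a p under 0.01, 5 were higher, against 9.77% of tested genes, and with the deposited p adjusted again, 5 were higher, against 10.1%. The median log2 fold change of the 10 genes in the authors' deposited table was 1.14, beside -0.0008 for all tested genes and 0.05 for tested protein-coding genes. In bulk tissue, more cells of a type and more RNA per cell cannot be told apart.

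**Figure D1:**
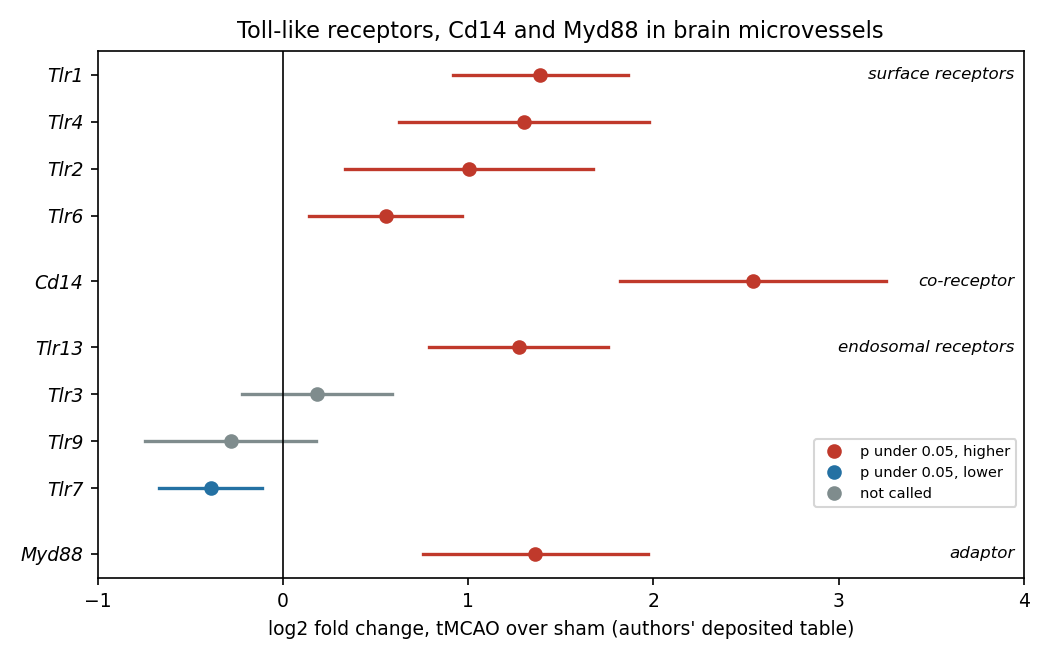
Log2 fold change, tMCAO over sham, of the 10 genes in the authors' deposited table (points), with 95% intervals from the implied standard errors (lines), ordered by role. Of the 10 genes, 7 lie above 0 with a p under 0.05 and 1, Tlr7, lies below. Of all tested genes, 15.2% were called higher and 17.6% lower. Centred on ribosomal protein genes the counts of the 10 would be 1 and 3, beside 1.71% and 78% of all tested genes.

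Among the surface receptors, Tlr1 encodes the partner with which Tlr2 binds triacylated lipopeptides. It was 2.62-fold higher after tMCAO by the authors' deposited table (log2 value 1.39, implied standard error 0.24, interval 0.92 to 1.86, p = 4.69e-07). Tlr6 encodes the alternative partner of Tlr2, for diacylated lipopeptides. It was 1.47-fold higher by the authors' deposited table (log2 value 0.55, implied standard error 0.21, interval 0.14 to 0.97, p = 0.0291), and at -0.35 (adjusted p = 0.115) when centred on ribosomal protein genes. The intervals of this pair overlap between 0.92 and 0.97, and their difference was not tested. Tlr2 itself, the shared chain, was 2.01-fold higher by the authors' deposited table (log2 value 1.00, implied standard error 0.34, interval 0.34 to 1.67, p = 0.0137). Its interval covers the values of both partners. The calls of Tlr2 and Tlr6 end if the deposited p is in fact unadjusted, with a newly adjusted p of 0.0579 for Tlr2 and 0.102 for Tlr6.

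Tlr1 and Tlr6 are close copies that lie side by side, so part of their reads may not be assignable. In the GENCODE M21 annotation of GRCm38, Tlr1 spans 64924679 to 64933563 and Tlr6 spans 64952031 to 64960097 on the minus strand of chromosome 5, with 18467 bases and no other annotated gene between them. Of the distinct windows of 50 bases in the longest annotated transcript, 15.3% of those of Tlr1 (454 of 2976) and 12.6% of those of Tlr6 (456 of 3628) also occur in a transcript of another gene, 454 of them shared between the pair. The remaining windows tell these genes apart, but the read length and the handling of reads that fit both places are left unstated in the sources used here. Tlr2, on chromosome 3 from 83836272 to 83841767, shares no such window with another gene.

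Tlr4 encodes the receptor for bacterial lipopolysaccharide. It was 2.46-fold higher after tMCAO by the authors' deposited table (log2 value 1.30, implied standard error 0.34, interval 0.63 to 1.98, p = 0.00122). Cd14, whose product hands lipopolysaccharide to the Tlr4 complex, was 5.81-fold higher by the authors' deposited table (log2 value 2.54, implied standard error 0.37, interval 1.82 to 3.26, p = 7.14e-10). Cd14 stood at rank 93 from the top of the 19294 tested genes by log2 fold change, and Tlr1, next among the 10, at rank 451. Of the 10 genes, only Cd14 was still called higher when fold changes were centred on ribosomal protein genes (log2 fold change 1.63, adjusted p = 1.64e-05). Tlr4 lies on chromosome 4 from 66827584 to 66930284 and Cd14 on chromosome 18 from 36725067 to 36726798, and neither shares a window of 50 bases with another gene or overlaps one.

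**Figure D2:**
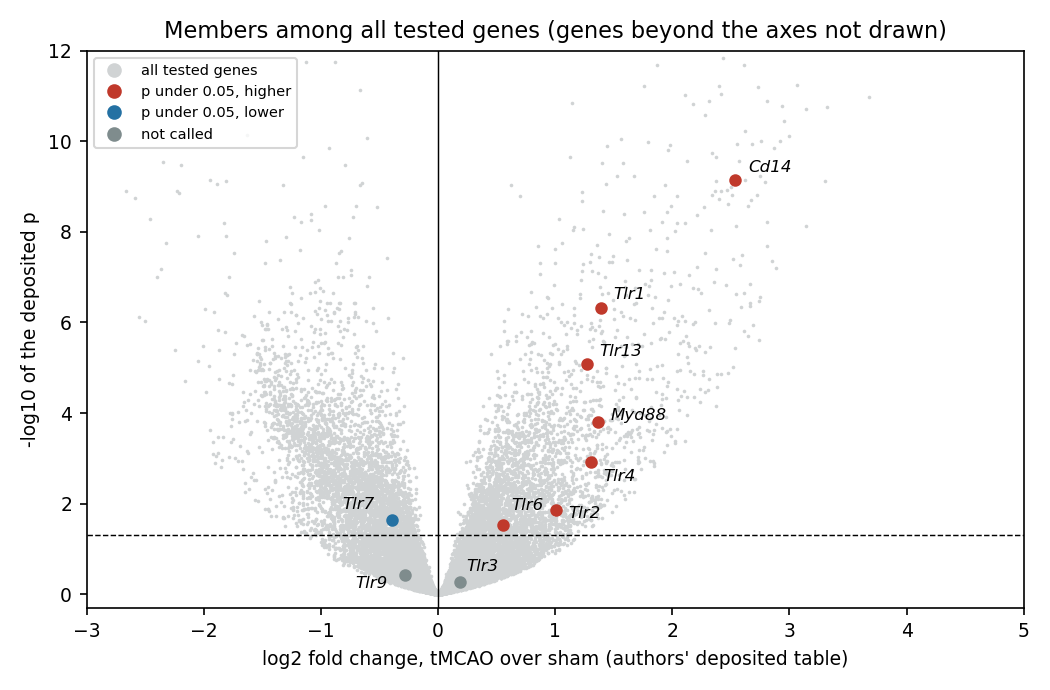
Log2 fold change, tMCAO over sham (x axis), against -log10 of the deposited p (y axis) for all tested genes within the axes (grey) and the 10 genes described (coloured and named). The dashed line marks a p of 0.05; Cd14 stands furthest from the other 9, and Tlr3 and Tlr9 lie under the line, a position that holds for the values as deposited and not when they are centred on ribosomal protein genes.

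The endosomal receptors did not share a direction in the authors' deposited table, where 1 of the 4 rose, 1 fell and 2 were not called. Of all tested genes, 15.2% were called higher and 17.6% lower, so 1 in 4 is not far from these shares. Centred on ribosomal protein genes, none of the 4 would be higher and 3 would be lower, beside 1.71% and 78% of all tested genes. Tlr13, which in mice recognises bacterial ribosomal RNA, was 2.42-fold higher by the authors' deposited table (log2 value 1.27, implied standard error 0.25, interval 0.79 to 1.76, p = 8.35e-06). Tlr7, a receptor for single-stranded RNA, was 1.31-fold lower by the authors' deposited table (log2 value -0.39, implied standard error 0.14, interval -0.67 to -0.11, p = 0.0224). These intervals lie on opposite sides of 0. The fall of Tlr7 is small, and it ends if the deposited p is unadjusted (newly adjusted p = 0.0836). Tlr9, a receptor for DNA rich in unmethylated CpG, stood at a log2 fold change of -0.28 by the authors' deposited table (implied standard error 0.24, interval -0.75 to 0.18, p = 0.376). Tlr3, a receptor for double-stranded RNA, had one of 0.18 in the authors' deposited table (implied standard error 0.21, interval -0.22 to 0.59, p = 0.525). The intervals of Tlr9 and Tlr3 include 0, and their upper ends lie under the value of Tlr13. Centred on ribosomal protein genes, Tlr9 would be at -1.19 and Tlr3 at -0.72, both called lower. Tlr13 lies on chromosome X from 106143204 to 106160493, Tlr7 on chromosome X from 167304929 to 167330558, Tlr9 on chromosome 9 from 106222598 to 106226883 and Tlr3 on chromosome 8 from 45395665 to 45411080. Of these, Tlr3 overlaps another annotated gene, Gm45542 on the opposite strand, which holds 1.56% of its windows of 50 bases; Tlr7, Tlr9 and Tlr13 share none.

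Among the 4 surface receptors of the group, 4 of 4 rose in the authors' deposited table, against 15.2% of all tested genes called higher. Their median on the log2 scale was 1.15, and that of the 4 endosomal receptors was -0.05. Centred on ribosomal protein genes, none of the 4 surface receptors would be called, beside 1.71% of tested genes higher and 78% lower. The difference between these classes was not tested. Of the other receptors of the family, 3 had a p and none was called in the authors' deposited table, while the ribosomal centring would call 1, Tlr12, lower and none higher. Tlr5, the flagellin receptor of the cell surface, stood at a log2 fold change of 0.34 by the authors' deposited table (implied standard error 0.35, p = 0.472). Tlr8 lies next to Tlr7 on chromosome X, 40599 bases away with no annotated gene between them, and stood at a log2 fold change of 0.89 by the authors' deposited table (implied standard error 0.42, interval 0.07 to 1.71, p = 0.0876). Its interval lies above that of Tlr7, although Tlr8 itself was not called and the difference was not tested. Tlr12, known in mice as a receptor for a parasite profilin, was at -0.05 in the authors' deposited table (p = 0.908), and Tlr11, with the same known ligand, at -0.02 with no deposited p.

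Myd88 encodes the adaptor used by all of these receptors except Tlr3, and by the receptors of interleukin-1 and interleukin-18. It was 2.57-fold higher after tMCAO by the authors' deposited table (log2 value 1.36, implied standard error 0.31, interval 0.76 to 1.97, p = 0.000159), and no longer called when centred on ribosomal protein genes (0.46, adjusted p = 0.162). Myd88 lies on the minus strand of chromosome 9 from 119335934 to 119341411, and its annotated span overlaps Acaa1a on the opposite strand and Slc22a14 on the same strand. Of its 2409 windows of 50 bases, 7.26% also occur in transcripts of Acaa1a, and whether counting used strand is left unstated in the sources used here. Acaa1a, a thiolase gene of peroxisomes, stood at a log2 fold change of -0.07 by the authors' deposited table (p = 0.683). Slc22a14, with no p, was at -0.54 in the authors' deposited table.

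The other TIR adaptors were split in the authors' deposited table: 2 of 5 tested rose, 1 fell and 2 were not called. Of all tested genes, 15.2% were called higher and 17.6% lower. When centred on ribosomal protein genes, none of the 5 would be higher and 2 lower, beside 1.71% and 78% of all tested genes. Tirap, which bridges Tlr2 and Tlr4 to Myd88, was 2.26-fold higher by the authors' deposited table (log2 value 1.18, implied standard error 0.27, p = 0.000149). Ticam1, the adaptor of Tlr3 and of Tlr4 in endosomes, rose by 0.71 on the log2 scale in the authors' deposited table (implied standard error 0.25, p = 0.0172), a direction that turns to -0.20 under the ribosomal centring. Its call ends if the deposited p is unadjusted (newly adjusted p = 0.0685). Sarm1, a TIR protein best known as the NAD-cleaving enzyme of degenerating axons, fell by 0.60 on the log2 scale in the authors' deposited table (implied standard error 0.18, p = 0.00408). Ticam2, the bridge from Tlr4 to Ticam1, was at 0.11 (p = 0.838) and Pik3ap1 at 0.23 (p = 0.712) in the authors' deposited table.

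Of 9 co-receptor and trafficking genes, 6 rose and 1 fell in the authors' deposited table, beside 15.2% and 17.6% of all tested genes. With values centred on ribosomal protein genes, none of the 9 would be higher and 4 lower, beside 1.71% and 78%. Ly96, which encodes the MD-2 chain that binds lipopolysaccharide within the Tlr4 complex, was 1.92-fold higher by the authors' deposited table (log2 value 0.94, implied standard error 0.32, p = 0.015). Lbp, the serum protein that extracts lipopolysaccharide from bacterial membranes, was 2.48-fold higher by the authors' deposited table (log2 value 1.31, implied standard error 0.46, p = 0.0173). Cd36, a scavenger receptor that assists Tlr2 with Tlr6, rose by 1.16 on the log2 scale, and Rftn1, a lipid raft protein, by 0.72 in the authors' deposited table. The calls of Ly96, Lbp and Cd36 end if the deposited p is unadjusted, with a newly adjusted p of 0.0616 for Ly96, 0.0685 for Lbp and 0.0699 for Cd36.

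Unc93b1, the escort of the endosomal receptors, rose by 0.49 on the log2 scale in the authors' deposited table (implied standard error 0.20, p = 0.0495). Hsp90b1, the chaperone gp96, rose by 0.31 in the authors' deposited table (p = 0.0095), and Cnpy3, its co-chaperone for these receptors, was at -0.32 and fell (p = 0.0241). Centred on ribosomal protein genes, Unc93b1 would be at -0.41 and Hsp90b1 at -0.59, so their direction depends on the centring. Of these 3 genes, only Hsp90b1 keeps its call if the deposited p is unadjusted, with a newly adjusted p of 0.151 for Unc93b1, 0.0882 for Cnpy3 and 0.044 for Hsp90b1. Cd180, a receptor-like protein that restrains Tlr4, was at 0.37 (p = 0.212), and its partner Ly86 at -0.19 (p = 0.564) in the authors' deposited table.

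**Figure D3:**
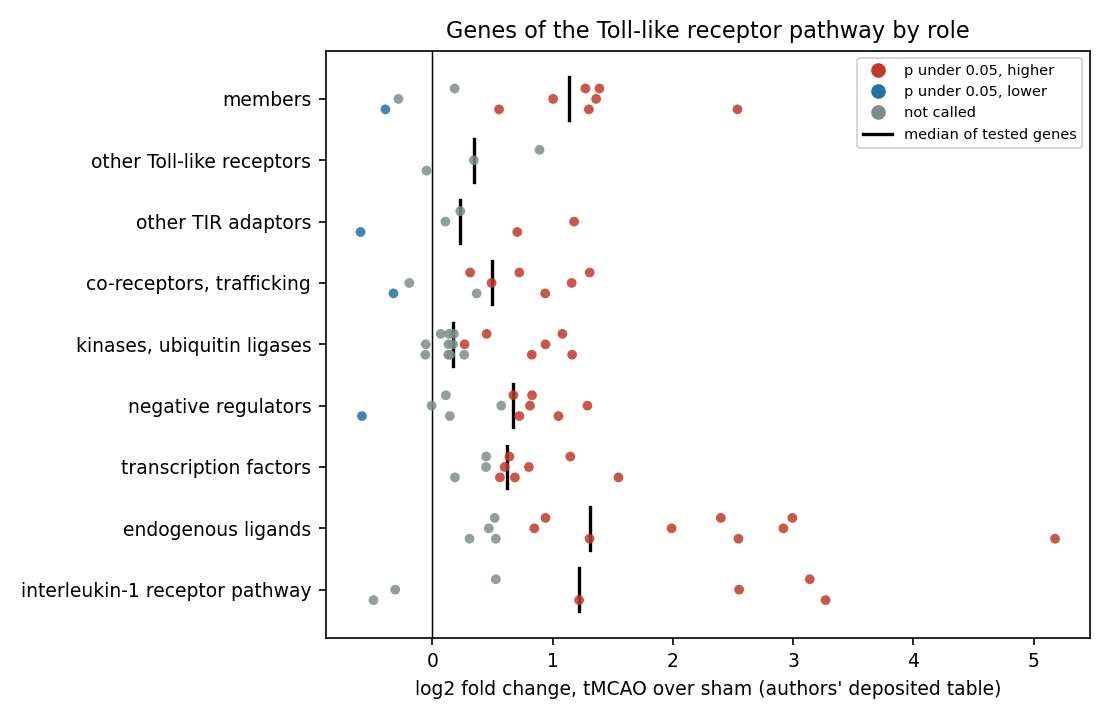
The x axis gives the log2 fold change, tMCAO over sham, of the tested genes of the Toll-like receptor pathway in the authors' deposited table, 1 point a gene, grouped by role, with the median of each list as a black bar. Of 74 tested genes outside the 10 members, 40 were called higher and 3 lower, beside 15.2% and 17.6% of all tested genes. Centred on ribosomal protein genes the counts of the 74 would be 9 and 28, beside 1.71% and 78% of all tested genes.

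Downstream of the adaptors, 6 of 16 kinase and ubiquitin ligase genes rose and none fell in the authors' deposited table. Of all tested genes, 15.2% were called higher and 17.6% lower. When centred on ribosomal protein genes, none of the 16 would be higher and 12 lower. The shares of all tested genes would then be 1.71% and 78%, so 12 of 16 is near the general share. Irak4, the first kinase recruited by the Myd88 protein, was 2.24-fold higher by the authors' deposited table (log2 value 1.16, implied standard error 0.26, p = 0.000132). Irak1, the kinase that it activates, rose by 0.27, the ubiquitin ligase gene Traf3 by 0.45, Ripk1 by 0.83, the MAP kinase activator gene Map3k8 by 0.94 and the interferon pathway kinase gene Ikbke by 1.08 on the log2 scale in the authors' deposited table. The call of Irak1 ends if the deposited p is unadjusted (newly adjusted p = 0.0878). The called values of this list were thus spread from 0.27 to 1.16, and its median was 0.18. The median of the 10 genes described was 1.14, that of all 11 tested Toll-like receptors 0.55 and that of the other TIR adaptors 0.23. These differences of medians were not tested.

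Of 11 negative regulators, 6 rose and 1 fell in the authors' deposited table, against 15.2% of all tested genes higher and 17.6% lower. Under the ribosomal centring, none of the 11 would be higher and 4 lower, against 1.71% and 78% of all tested genes. Irak3, a kinase relative found mainly in macrophages that blocks signalling from the Myd88 complex, was 2.44-fold higher by the authors' deposited table (log2 value 1.29, implied standard error 0.29, p = 0.000108). Tnfaip3, the ubiquitin-editing enzyme A20, rose by 1.05, its partner Tnip1 by 0.72, the RNase gene Zc3h12a by 0.81 and the inositol phosphatase gene Inpp5d by 0.67 on the log2 scale in the authors' deposited table. Cyld, a deubiquitinase, fell by 0.59 in the authors' deposited table (p = 0.00124). The log2 fold change of Irak3 thus lay close to those of Myd88 (1.36) and Irak4 (1.16) in the authors' deposited table.

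Among 10 transcription factors of the pathway, 7 rose and none fell in the authors' deposited table. The shares of all tested genes were 15.2% higher and 17.6% lower. Under the ribosomal centring, none of the 10 would be higher and 2 lower, and the shares would be 1.71% and 78%. Nfkb2, the precursor of the NF-kappaB subunit p52, was 2.92-fold higher by the authors' deposited table (log2 value 1.55, implied standard error 0.33, p = 5.06e-05). Its partner Relb rose by 1.15, the interferon regulatory factor gene Irf7 by 0.80, Rela by 0.69, Nfkb1 by 0.64 and Rel by 0.56 on the log2 scale in the authors' deposited table. The call of Rel ends if the deposited p is unadjusted (newly adjusted p = 0.079).

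Of 16 genes whose products have been reported to act on Toll-like receptors after injury, 13 had a p, and 9 of these rose and none fell in the authors' deposited table; 6 would be higher and 1 lower when centred on ribosomal protein genes. Saa3, an acute phase protein, had the highest value of this list in the authors' deposited table, at 5.18 (adjusted p = 3.33e-39). The matrix protein gene Tnc rose by 2.99, S100a8 by 2.92 and S100a9 by 2.55 on the log2 scale in the authors' deposited table. The last named pair encodes the subunits of calprotectin, reported to act on Tlr4, and is also abundant in neutrophils. The heat shock genes Hspa1b at 2.40 and Hspa1a at 1.99 also rose in the authors' deposited table, and as near-identical genes they can share reads. The receptor pathway of interleukin-1 also signals through the Myd88 protein, and 4 of its 7 tested genes rose in the authors' deposited table. The ribosomal centring would give 3 higher and 2 lower. The shares of all tested genes are those given for the ligands. The 4 that rose were Il1b at 3.27, its antagonist Il1rn at 3.14, Il18rap at 2.55 and the receptor gene Il1r1 at 1.22.

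Toll-like receptor genes are shared by several cell types whose markers moved in different directions. Beside the marker counts that follow, 15.2% of all tested genes were called higher and 17.6% lower. With the ribosomal centring these shares were 1.71% and 78%. Neutrophil markers rose in 7 of 8 tested genes in the authors' deposited table, led by Il1r2, Trem1 and Cxcr2 at 3.15, 3.87 and 3.14. Monocyte and macrophage markers rose in 6 of 12, among them Itgam at 1.91, Chil3 at 2.23 and Plac8 at 2.06. The other 6, Mrc1, Cd163, Ms4a7, F13a1, Fn1 and Vcan, had positive values but were not called. Centred on ribosomal protein genes, 7 neutrophil markers and 4 monocyte and macrophage markers would be called higher. Genes of all leukocytes rose in 6 of 8 and fell in 1 in the authors' deposited table, with Itgb2 at 1.36, Spi1 at 1.35 and Ptprc at 0.96; none would be higher and 2 lower under the ribosomal centring. The values of Tlr1, Tlr4, Tlr13 and Myd88 ran from 1.27 to 1.39. The genes of all leukocytes ran from -0.38 to 1.36, and the monocyte and macrophage markers from 0.47 to 2.23. The endothelial markers ran from -0.29 to 1.18. Microglia markers fell in 6 of 10 and rose in none in the authors' deposited table. Those that fell included Gpr34 at -2.23, Siglech at -2.46 and P2ry12 at -1.74. Under the ribosomal centring, 10 of 10 would be lower, in a setting that calls 78% of all tested genes lower. Tlr7, at -0.39, lies within the range of the microglia markers, -2.46 to 0.27. It also lies within those of pericyte and smooth muscle (-0.42 to 0.83) and astrocyte (-0.41 to 1.87) markers. The same holds for oligodendrocyte (-1.38 to -0.37) and lymphocyte and dendritic cell (-1.24 to -0.18) markers. The part of each cell type in the changes of the 10 genes was not tested.

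**Figure D4:**
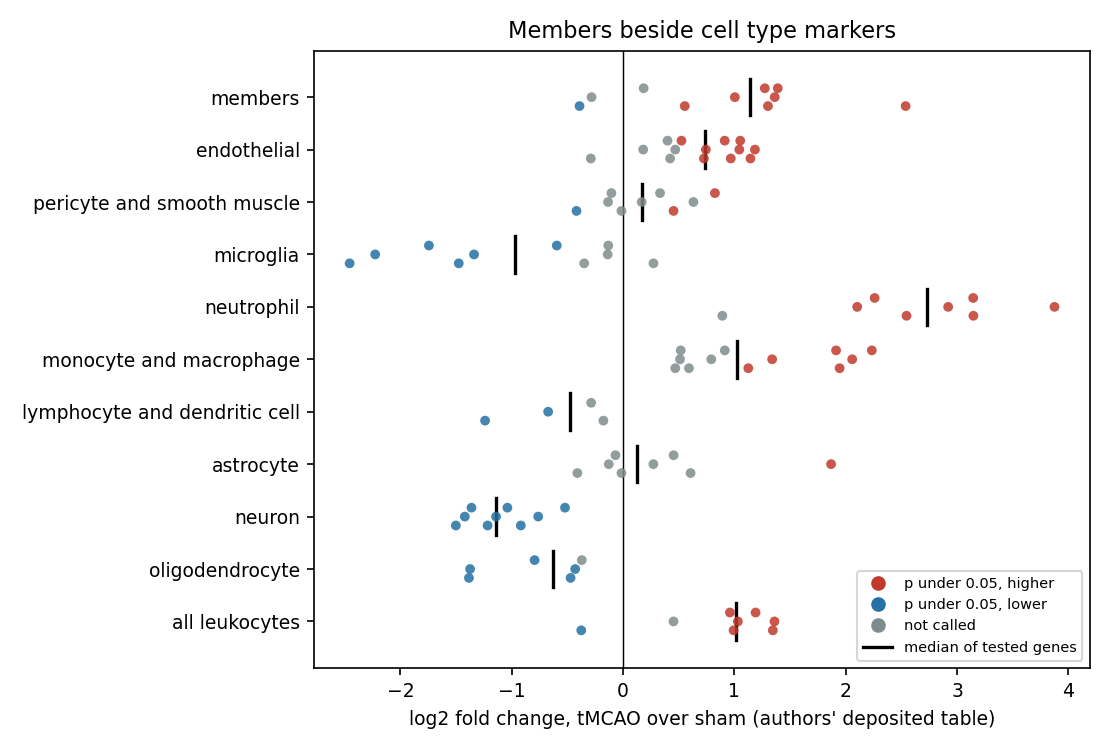
Log2 fold change, tMCAO over sham, of the 10 genes and of the tested markers of 10 cell classes in the authors' deposited table, 1 point a gene, with each list's median as a black bar. The median of the 10 genes, 1.14, lies near those of the monocyte and macrophage (1.02) and all leukocyte (1.01) markers. It lies below the neutrophil median (2.73) and above the endothelial (0.73) and microglial (-0.97) ones. Centred on ribosomal protein genes each median would lie about 0.90 lower, which takes the endothelial one below 0.

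Vessel cells were also in the comparison, and the shares of all tested genes given above apply to the marker counts below. Endothelial markers rose in 9 of 14 and none fell in the authors' deposited table, with Emcn at 1.14, Cdh5 at 1.18 and Egfl7 at 1.04, while none would be higher and 3 lower under the ribosomal centring. Pericyte and smooth muscle markers rose in 2 of 9 and fell in 1 in the authors' deposited table, with Kcnj8 at 0.83, Abcc9 at 0.45 and Cspg4 at -0.42; none would be higher and 5 lower under the ribosomal centring. Neuron markers fell in 9 of 9 and oligodendrocyte markers in 5 of 6 in the authors' deposited table. Astrocyte markers rose there in 1 of 8, Gfap. Under the ribosomal centring, 9, 6 and, for astrocytes, 4 would be lower, beside 78% of all tested genes. Of 10 lymphocyte and dendritic cell markers, 4 had a p, and Cd4 and Flt3 fell in the authors' deposited table. The microvessel label cannot be checked against marker levels, since levels were not analysed. All 23 endothelial, pericyte and smooth muscle markers had a deposited p, as did all 9 neuron, 10 microglia, 8 astrocyte and 6 oligodendrocyte markers. Having a p therefore does not set vessel cells apart.

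The choice of what counts as unchanged bears on most of these calls. Ribosomal protein genes had their median at 0.90 on the log2 scale in the authors' deposited table, so centring on their 79 tested genes lowers every gene by that amount and shifts the median of all tested genes to -0.90, with 330 genes called higher and 15047 lower. These are 1.71% and 78% of the tested genes, beside the 1 higher and 3 lower among the 10 genes. Relative to that shifted median the order of the 10 genes is the same by construction. Centred instead on the genes with the smallest implied standard errors, whose median was -0.01, all 10 genes kept their call, beside 15.6% of all tested genes higher and 17.1% lower.

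**Figure D5:**
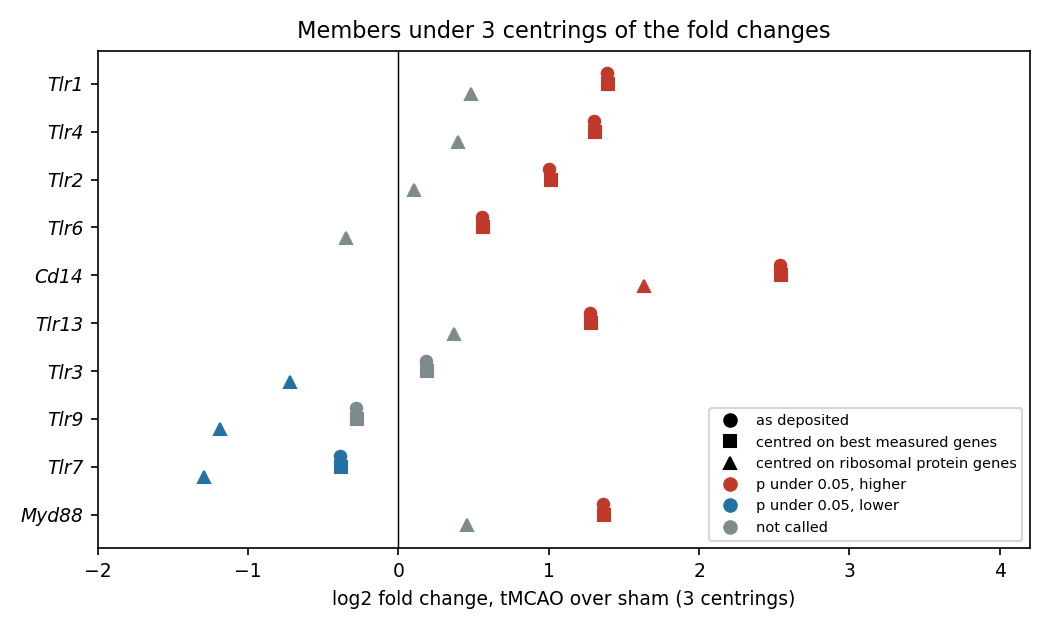
Log2 fold change, tMCAO over sham, of the 10 genes as deposited (circles), centred on the best measured genes (squares) and centred on ribosomal protein genes (triangles), coloured by call. The first 2 settings give 7 genes called higher and 1 lower. The ribosomal centring gives Cd14 alone higher and Tlr3, Tlr7 and Tlr9 lower, beside 1.71% and 78% of all tested genes.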

How the data were processed

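Libraries of 4 tMCAO and 4 sham samples were made from total RNA after removal of ribosomal RNA, according to the labels' protocols. DESeq2, HTSeq, STAR, cutadapt and bcl2fastq 2.19 and the builds GRCm38 and mm10 are listed, without roles, in the submitters' processing notes. The authors deposited a log2 fold change for 31616 of 48404 genes and a p-value for 19294, per the file headers; the headers of the 3 sheets name a library in 0 columns, so the precision of a value rests on its implied standard error. The p was taken to be adjusted by the Benjamini-Hochberg method, since 3214 distinct values each recur in genes that differ in fold change. Among genes without a p, 8 log2 values of size up to 0.169 are each shared by 212 to 440 genes, the pattern of shrunken fold changes, which the sources used here do not state.

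Unadjusted p-values were recovered from rank (Python 3.11.15, pandas 2.3.3, scipy 1.17.1) and turned into normal deviates; the log2 fold change divided by its deviate gave the implied standard error, with 95% intervals. This working back was run on simulated fold changes with normal errors and no shrinkage. It reverses the steps that made the simulated p-values, so it cannot show whether the errors hold for shrunken fold changes. The members and gene lists were chosen with earlier results of these data known, so the lists are described by counts and medians, with no set test. Named were all members, all other receptors, adaptors and co-receptors, up to 6 called genes of each further pathway list plus up to 3 called against its main direction, and up to 3 genes of each marker list by smallest p. Genes named outside this rule are the neighbours of Myd88 and Tlr3, chosen for their position, Il6 and Hmox1, used for the direction of the fold change, and the sensors outside the Toll-like family, all chosen after values were seen. Also outside it are the monocyte and macrophage markers that were not called. A planned comparison of protein sequences was not made, and transcript windows of 50 bases were compared instead. A motif of interferon-stimulated elements was also searched in the promoters and is not described here, and the promoters to print were chosen after it was left out. Promoters came from RefSeq (GRCm38.p6), gene positions from GENCODE M21.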

Additional observations from a re-analysis of the deposited data

How the results depend on the processing

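Leaving out libraries, other normalizations of counts and count filters were not run, because only the authors' comparison was analysed. No paired analysis was possible because the result comes from a deposited comparison and the groups share no replicate numbers. Of 10 members, all 10 kept their result with a threshold of 0.1, with protein-coding genes only and when centred on the best measured genes. With a threshold of 0.01, 5 members were called higher and 0 lower, and 4220 of all tested genes were called. With the deposited p adjusted again, 5 were higher and 0 lower. In both cases Tlr2, Tlr6 and Tlr7 lost their call, by the alternatives' own construction. With a change of at least 1 on the log2 scale asked for, 6 members were higher and 0 lower, 20 other pathway genes were higher and 0 lower, and 1876 of all genes were called.

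Centred on ribosomal protein genes, 1 member was higher and 3 lower, and 9 other pathway genes were higher and 28 lower. In that setting 15377 of all genes were called, 1.71% of the tested genes higher and 78% lower. Called genes, or genes called under that centring, whose sign turned on the log2 scale were Tlr3 (-0.72), Tlr6 (-0.35), Ticam1 (-0.20), Ticam2 (-0.80), Unc93b1 (-0.41), Hsp90b1 (-0.59), Cd180 (-0.54), Rftn1 (-0.18), Traf3 (-0.45), Ripk1 (-0.077), Irak1 (-0.64), Tnip1 (-0.18), Inpp5d (-0.23), Zc3h12a (-0.092), Irf7 (-0.10), Nfkb1 (-0.26), Rela (-0.22), Rel (-0.34), Abcc9 (-0.45) and Kcnj8 (-0.079). Signs also turned in Tlr5 (-0.56), Tlr8 (-0.013), Pik3ap1 (-0.67) and Sox9 (-0.30), called in neither setting. That centring subtracts 0.90 from every gene. The implied standard errors of the members ran from 0.14 to 0.37, so changes such as those of Tlr3 and Tlr9 were not detectable at this precision.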

Other observations

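A list of 13 genes for sensors outside the Toll-like family, and the proteins that act just below them, was chosen after the values of the members were known. Of these, 8 were called higher and none lower in the authors' deposited table, with a median log2 fold change of 0.60. Of all tested genes, 15.2% were called higher and 17.6% lower. When centred on ribosomal protein genes, 2 of the 13 would be higher and 3 lower, beside 1.71% and 78% of all tested genes. Zbp1, a sensor of Z-form nucleic acids, was at 2.43 (implied standard error 0.31, p = 1.41e-12) and Tmem173, which encodes the STING adaptor of cytosolic DNA sensing, at 1.95 (implied standard error 0.23, p = 3.66e-15) in the authors' deposited table. Mb21d1, the gene of the DNA sensor cGAS upstream of STING, was at 0.53 (p = 0.0413) and the RNA sensor gene Ddx58 at 0.79 (p = 0.0173) in the authors' deposited table. Clec7a, the beta-glucan receptor dectin-1, was at 1.05 (p = 0.0326) and its kinase Syk at 0.94 (p = 0.000134) in the authors' deposited table. The calls of Mb21d1, Ddx58, Clec7a, Dhx58 and Card9 end if the deposited p is unadjusted. Each has a larger deposited p than Tlr2, whose call ends as well. Nod1 at 0.39 (p = 0.126) and Nod2 at 0.64 (p = 0.145), receptors for bacterial peptidoglycan fragments, and their kinase Ripk2 at -0.02 (p = 0.929) were not called in the authors' deposited table.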
